A study of Mus musculus with 10 samples.

Results

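Complement and coagulation are the plasma protease cascades that the liver supplies, and 44 of their genes were followed here in livers of mice given napabucasin or its vehicle. The members were the rows of the gene count table whose gene name is on a list of 23 complement and 21 coagulation genes. All 44 were found among the 54532 genes of the table. Napabucasin (BBI608), a quinone compound known as a blocker of transcription through STAT3, was gavaged daily for 7 days at 20 mg per kg of body weight in 5 mice. The 5 vehicle mice were gavaged for the same 7 days with 1% NaCMC (carboxymethyl cellulose). The labels call the libraries of a group biological replicates. The labels name no strain, sex or age, and no genotype or other agent for either group. Gene expression was compared to find genes and pathways that the drug affects in the liver.

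In complement, recognition molecules such as C1q and the mannose-binding lectins bind to a surface and start proteases that cleave C3, after which C5 to C9 assemble into a pore. In coagulation, serine proteases activate each other in sequence until thrombin cuts fibrinogen into fibrin, and plasmin later dissolves the clot. Hepatocytes make most of these proteins, while C1q and properdin are largely products of macrophages and other myeloid cells. Fibrinogen and C3 are acute-phase proteins, and interleukin-6 acting through STAT3 is a textbook inducer of the fibrinogen genes.

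Library totals ran from 15364342 to 17369118 counts in napabucasin livers and from 14124484 to 17759967 counts in vehicle livers. Mitochondrially encoded genes took 19.9% of counts in napabucasin replicate 1 and 9.03% to 15.3% in the other napabucasin libraries, and 19.0% in vehicle replicate 1 and 7.03% to 8.78% in the other vehicle libraries. Hepatocyte markers, 9 genes including Alb and Apoa1, were abundant in every library and summed to 83914 to 148020.0 CPM (counts scaled to the TMM library size) in napabucasin livers and to 56902 to 174931 CPM in vehicle livers. Markers of other cells differed in sum between libraries. All 10 lymphocyte markers had a higher mean in napabucasin livers, and their sum was 40.8 to 66.5 CPM there and 19.0 to 25.3 CPM in vehicle livers. Of 14244 genes tested with edgeR's quasi-likelihood F test, 0% passed an adjusted p under 0.05, and the smallest adjusted p was 0.0644. DESeq2 called 1.77% of the genes it tested and limma-voom with quality weights called 0.927% at that threshold. With edgeR, 9.34% of genes were higher and 5.83% were lower in napabucasin livers at an unadjusted p under 0.05.

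No complement or coagulation gene passed the adjusted threshold between napabucasin and vehicle livers. The fitted log2 fold change lay between -0.5 and 0.5 for 37 of the 43 members tested. Of the 23 complement genes, 22 had enough counts to be tested. In napabucasin livers 9 of the 22 had a higher and 13 a lower fitted level, and the log2 fold changes had a median of -0.03 and a range of -0.35 to 0.87. All 21 coagulation genes were tested, 9 with a higher and 12 with a lower fitted level, with a median of -0.12 and a range of -0.44 to 0.61. The median over all genes tested was 0.00. At an unadjusted p under 0.05 there was 1 higher complement gene, Cfp, and 0 lower ones, and there were 0 coagulation genes in either direction. These counts stand beside the 9.34% and 5.83% of all genes given above. Neither DESeq2 nor limma-voom called any of the 43 members at an adjusted p under 0.05. At an unadjusted p under 0.05 DESeq2 gave Cfp, which was higher, and limma-voom gave Cfp, again higher, and Cfb, which was lower.

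The 95% intervals show how large a difference could have gone undetected. For 16 of 22 complement genes and 19 of 21 coagulation genes, the interval of the log2 fold change lay within -1 and 1, that is, within 2-fold either way. The same held for 59.7% of all genes tested. The members outside these bounds were C1qa, C1qb, C1qc, C6, Cfp and Cfb in complement and Fgb and F11 in coagulation. The groups overlapped for every member: 0 of the 43 had all 5 napabucasin livers above or all 5 below all 5 vehicle livers, against 1.21% of all genes above and 0.934% below.

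**Figure D1:**
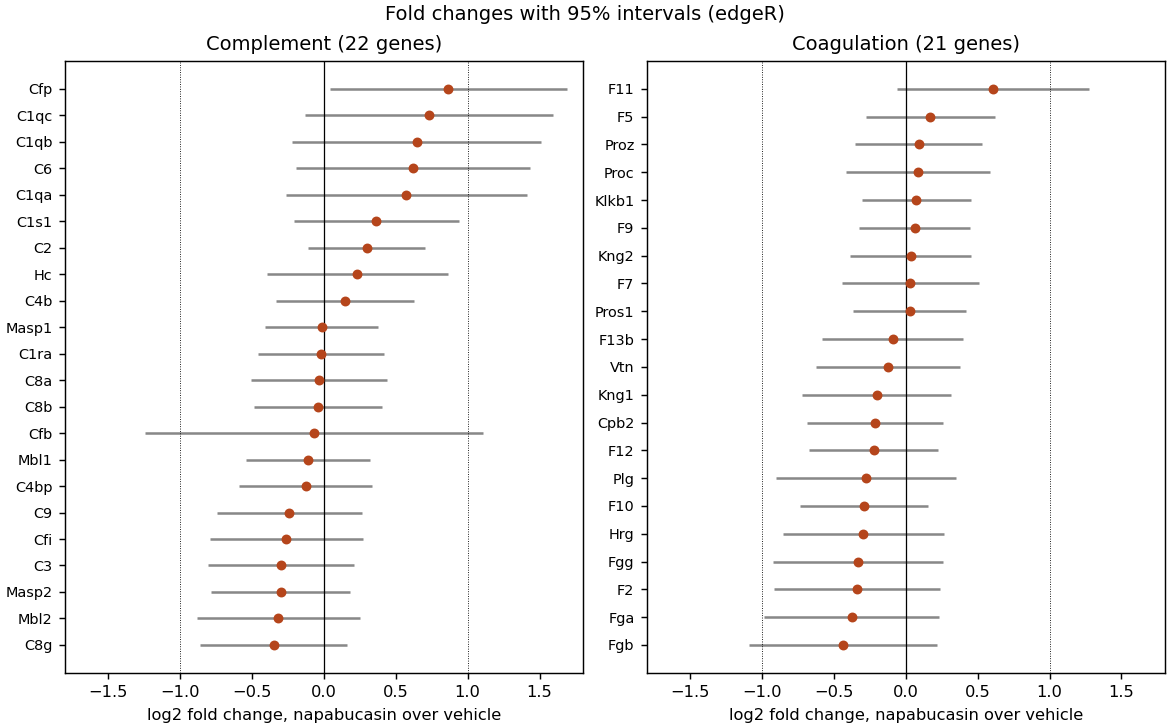
Log2 fold changes (horizontal axis, napabucasin over vehicle) of the 22 complement and 21 coagulation genes tested, with 95% intervals as bars and dotted lines at 2-fold either way. The interval of Cfp alone excludes 0, and the 5 highest complement genes are Cfp, C1qc, C1qb, C6 and C1qa.

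Same-numbered libraries of the 2 groups deviated together weakly, with correlations of 0.154 to 0.278, and a replicate block was fitted as an alternative. No label states such a pairing. It was read from these same data, so the p-values of the block are no independent support. With the block, 2 complement genes were higher at an unadjusted p under 0.05, Cfp (log2 fold change 0.89, unadjusted p = 0.0239, edgeR adjusted p = 0.182) and C1qc (0.82, unadjusted p = 0.0302, adjusted p = 0.199). In coagulation 1 gene was higher, F11 (0.58, unadjusted p = 0.0379, adjusted p = 0.218), and 0 members of either cascade were lower. The same fit placed 11.8% of all genes higher and 8.81% lower at that unadjusted threshold.

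Per length, the members spanned a wide range of levels. The deposited FPKM values scale reads by gene length and by a size factor of each library. They were highest for the fibrinogen gamma chain Fgg. Fgg averaged 2337 ± 482 FPKM in napabucasin livers and 2961 ± 1076 FPKM in vehicle livers (SD, n = 5 each). The fibrinogen beta chain Fgb averaged 1480.4 ± 493 FPKM in napabucasin livers and 2012 ± 777 FPKM in vehicle livers. Vitronectin (Vtn), a plasma and matrix protein that binds the terminal complement complex and stabilises PAI-1, averaged 1652 ± 294 FPKM in napabucasin livers and 1812 ± 424 FPKM in vehicle livers. C3, the central component of complement, averaged 1415 ± 207 FPKM in napabucasin livers and 1754 ± 413 FPKM in vehicle livers, the most of any complement gene. Fgb, Vtn and C3 differed from each other by less than the larger of their SDs, while Fgg exceeded Fgb by more than its SD in napabucasin livers. At the low end the factor B gene Cfb averaged 1.41 ± 1.41 FPKM in napabucasin livers and 1.50 ± 0.851 FPKM in vehicle livers, and Cfd was at or near 0. The level and rank of Cfb are uncertain, because 79.5% of its exon bases also belong to another annotated gene and reads there may not have been counted.

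**Figure D2:**
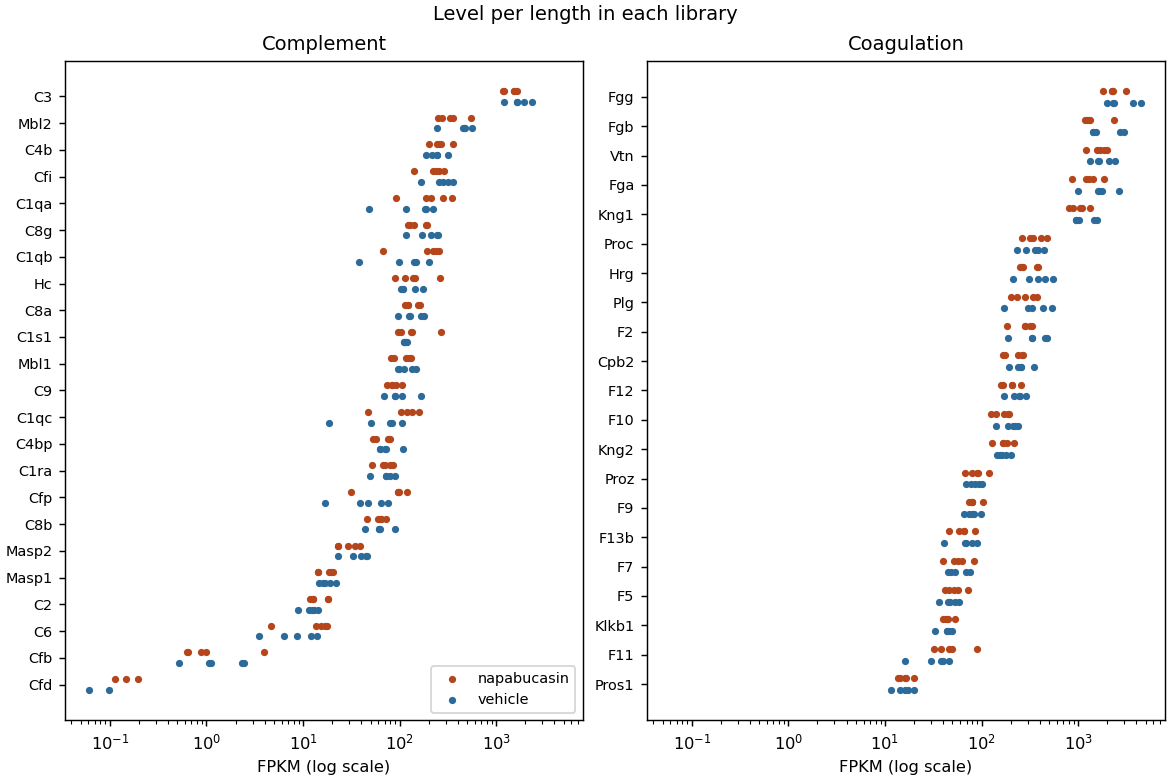
FPKM (horizontal axis, log scale) of the 23 complement and 21 coagulation genes in each library, ordered by the mean of the 10, with napabucasin livers above vehicle livers in each row; libraries at 0 FPKM are not drawn. Fgg, Fgb, Vtn, C3, Fga and Kng1 lead, and Cfb, whose level is uncertain, and Cfd lie at the low end.

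The complement genes furthest above the rest in napabucasin livers were the chains of C1q, properdin and C6. C1q, which binds antibody and dying cells to open the classical pathway, is built from the products of C1qa, C1qb and C1qc. The chains are encoded side by side on chromosome 4 (GRCm38), with C1qb at 136880129 to 136886187, C1qc at 136889804 to 136893065 and C1qa at 136895917 to 136898803. Properdin (Cfp, chromosome X, 20925454 to 20931555) stabilises the C3 convertase of the alternative pathway. C6 (chromosome 15, 4727175 to 4814967) is a component of the pore.

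The 250 bases before the RefSeq start site (GRCm38.p6) of C1qb, C1qc and Cfp are shown to give the sequence context of these genes, and no result rests on them. Each is printed 5′ to 3′ on the gene's strand, and capitals mark the PU.1 motif GAGGAAG on either strand. PU.1 is a transcription factor of macrophages and other myeloid cells. No C1qa promoter was matched in the table used, and the deposited start of C1qc lies inside its window.
C1qb (chr4:136886201-136886450, minus strand): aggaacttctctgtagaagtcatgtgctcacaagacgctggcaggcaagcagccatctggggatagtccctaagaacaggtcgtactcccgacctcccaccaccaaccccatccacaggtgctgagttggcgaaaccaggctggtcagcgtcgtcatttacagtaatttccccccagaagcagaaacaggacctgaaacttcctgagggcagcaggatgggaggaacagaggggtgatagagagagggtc
C1qc (chr4:136892915-136893164, minus strand): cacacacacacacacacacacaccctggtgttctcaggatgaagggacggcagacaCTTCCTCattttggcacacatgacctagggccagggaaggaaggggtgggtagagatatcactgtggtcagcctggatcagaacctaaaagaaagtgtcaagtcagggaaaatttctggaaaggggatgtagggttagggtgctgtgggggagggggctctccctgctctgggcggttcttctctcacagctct
Cfp (chrX:20931556-20931805, minus strand): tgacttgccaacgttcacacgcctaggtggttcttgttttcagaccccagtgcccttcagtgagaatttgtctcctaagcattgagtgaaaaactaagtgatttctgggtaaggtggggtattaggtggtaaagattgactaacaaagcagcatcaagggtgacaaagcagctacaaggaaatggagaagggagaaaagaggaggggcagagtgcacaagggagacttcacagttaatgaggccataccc
The motif occurred in C1qc, 194 to 188 bases before the start, and not in the printed windows of C1qb or Cfp. It was present in 12% of the 27025 genes of the promoter table, in 1 of 17 complement genes and in 1 of 18 coagulation genes, Fgb. A gene was counted if any of its listed promoters held the motif. A match is a description of letters and not a bound site.

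The chains of C1q were low in the same livers. C1qa measured 201, 225, 359, 296 and 97.8 CPM in napabucasin replicates 1 to 5 and 51.0, 235, 189, 198 and 120.3 CPM in vehicle replicates 1 to 5. C1qb measured 215, 247, 279, 263 and 74.2 CPM in napabucasin livers and 42.5, 224, 162, 155 and 106 CPM in vehicle livers. C1qc measured 203, 235, 304, 262 and 91.8 CPM in napabucasin livers and 36.2, 209, 156, 162 and 97.1 CPM in vehicle livers. All were lowest in vehicle replicate 1, next in napabucasin replicate 5 and then in vehicle replicate 5, and the groups overlapped. C1qa averaged 236 ± 99.1 CPM in napabucasin livers and 159 ± 73.2 CPM in vehicle livers (SD, n = 5 each), for a fitted log2 difference of 0.57 ± 0.39 (SE, adjusted p = 0.477 in edgeR). C1qb averaged 216 ± 82.5 CPM in napabucasin livers and 138 ± 67.7 CPM in vehicle livers, for a fitted log2 difference of 0.65 ± 0.40 (SE, adjusted p = 0.441 in edgeR). C1qc averaged 219 ± 80.3 CPM in napabucasin livers and 132 ± 66.8 CPM in vehicle livers, for a fitted log2 difference of 0.73 ± 0.40 (SE, adjusted p = 0.394 in edgeR).

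Cfp and C6 had the same low libraries. Cfp measured 169.6, 169, 209, 174 and 55.9 CPM in napabucasin livers and 30.2, 135, 82.5, 113 and 66.4 CPM in vehicle livers. Napabucasin replicate 5 lay among the vehicle values, and the other 4 napabucasin livers lay above all 5 vehicle livers. Its mean was 156 ± 58.1 CPM in napabucasin livers and 85.3 ± 40.6 CPM in vehicle livers (SD, n = 5 each), for a fitted log2 difference of 0.87 ± 0.38 (SE, adjusted p = 0.316 in edgeR), with an unadjusted p of 0.0405 and an interval of 0.04 to 1.69. C6 measured 65.0, 61.6, 54.0, 48.6 and 17.0 CPM in napabucasin livers and 12.6, 50.7, 43.3, 30.9 and 22.3 CPM in vehicle livers, and again the groups overlapped. It averaged 49.2 ± 19.2 CPM in napabucasin livers and 32.0 ± 15.4 CPM in vehicle livers, for a fitted log2 difference of 0.62 ± 0.38 (SE, adjusted p = 0.433 in edgeR).

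**Figure D3:**
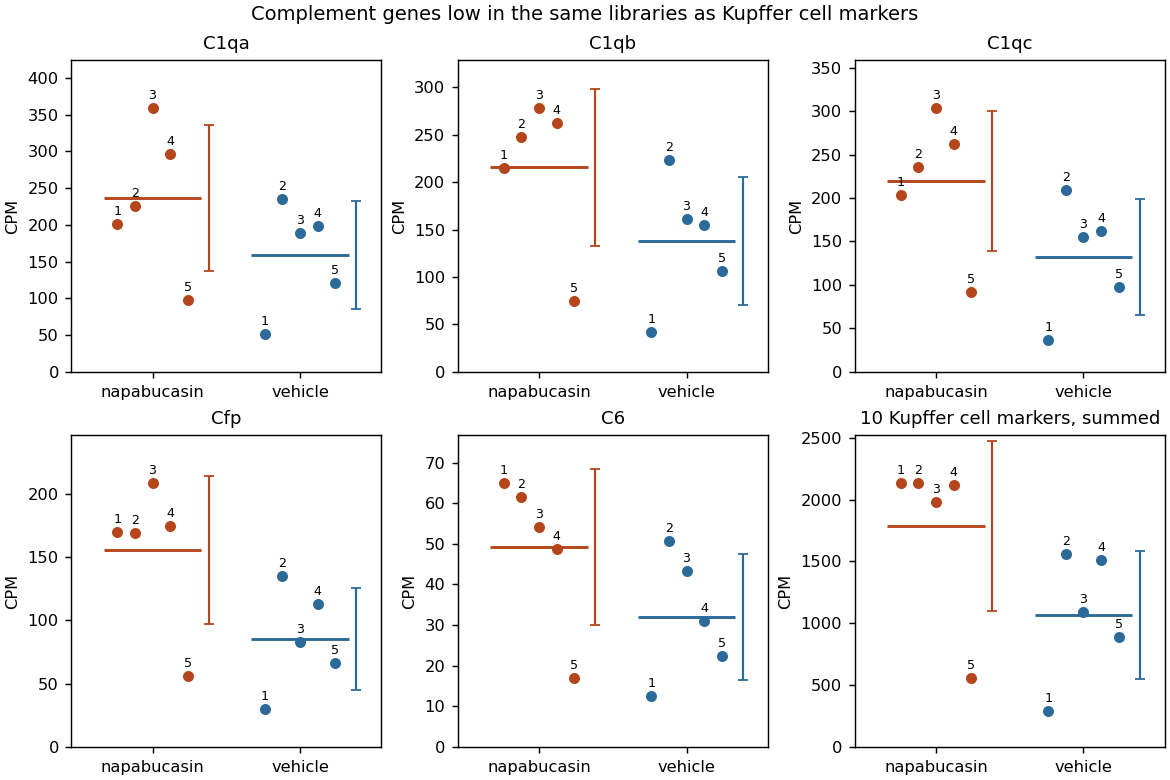
CPM (vertical axes, from 0) of C1qa, C1qb, C1qc, Cfp, C6 and the sum of 10 Kupffer cell markers in each library, numbered by replicate, with the group mean as a line and ± 1 SD as a bar, napabucasin left of vehicle. In every panel vehicle replicate 1, napabucasin replicate 5 and vehicle replicate 5 are the lowest libraries.

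Single libraries moved the size of these differences. The unadjusted p of Cfp stayed under 0.05 without napabucasin replicate 5 (0.00640), vehicle replicate 2 (0.0153) or vehicle replicate 4 (0.0376). It was 0.0683 to 0.0939 when any of the other 7 libraries was left out, namely napabucasin replicates 1 to 4 or vehicle replicates 1, 3 or 5. Without napabucasin replicate 5, the complement genes under an unadjusted p of 0.05 were 4, C1qb, C1qc, Cfp and C6, and the log2 fold change of Cfp was 1.08. Without vehicle replicate 2 they were 5, the same 4 and C8g, which was lower. Without vehicle replicate 1 there were 0, and the log2 fold change of C1qa was 0.33 and that of Cfp 0.63. Vehicle replicate 1, the lowest library for these genes, also had the high mitochondrial share of 19.0%. Napabucasin replicate 1 had the highest share, 19.9%, and was not among the low libraries. The other low libraries, napabucasin replicate 5 and vehicle replicate 5, had shares of 11.4% and 7.03%. With mitochondrially encoded genes removed from the counts, the log2 fold change of Cfp was 0.87 (unadjusted p = 0.0428 in edgeR). Under TMM scaling, such a removal changes little for the other genes. The fit therefore cannot show the part of the mitochondrial share in the levels, which was not tested.

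Markers of Kupffer cells, the resident macrophages of the liver, moved with these genes. All 10 markers (Clec4f, Timd4, Cd5l, Marco, Vsig4, Adgre1, Csf1r, Cd68, Cd163 and Folr2) were detected in every library and had a higher fitted level in napabucasin livers, and their median log2 fold change was 0.66. Clec4f (1.07, SE 0.41) and Cd68 (0.90, SE 0.37) had an unadjusted p under 0.05, and their edgeR adjusted p was 0.281 and 0.302. Of all genes tested, 9.34% were higher at that unadjusted threshold. The summed markers came to 2137, 2135, 1979, 2119.7 and 561 CPM in napabucasin livers and to 289.5, 1563, 1093, 1509 and 892 CPM in vehicle livers. The sum was lowest in vehicle replicate 1, then in napabucasin replicate 5 and vehicle replicate 5. C1qa, C1qb, C1qc, Cfp and C6 were the 5 of 43 members whose lowest 2 libraries were those of the marker sum, a pattern held by 4.91% of all genes tested. In bulk tissue, fewer cells of a type and less RNA per cell cannot be told apart.

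Set against the markers, the same genes lay close together in the 2 groups. Per 100 CPM of summed Kupffer markers, C1qa measured 13.9 ± 3.94 in napabucasin livers and 15.3 ± 2.09 in vehicle livers (SD, n = 5 each). On that scale C1qb measured 12.3 ± 1.54 in napabucasin livers and 13.2 ± 2.00 in vehicle livers, and C1qc measured 12.9 ± 2.89 in napabucasin livers and 12.4 ± 1.52 in vehicle livers. Cfp measured 8.92 ± 1.24 in napabucasin livers and 8.30 ± 1.29 in vehicle livers, and C6 measured 2.80 ± 0.308 in napabucasin livers and 3.22 ± 0.961 in vehicle livers. For all 5 genes the difference between the means was smaller than the larger of the SDs, and the groups overlapped. These scaled values share the marker sum as denominator, and the 5 genes were chosen because their lowest libraries are those of that sum. A closer agreement between libraries follows in part from that choice, so the values are a description with no test.

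**Figure D4:**
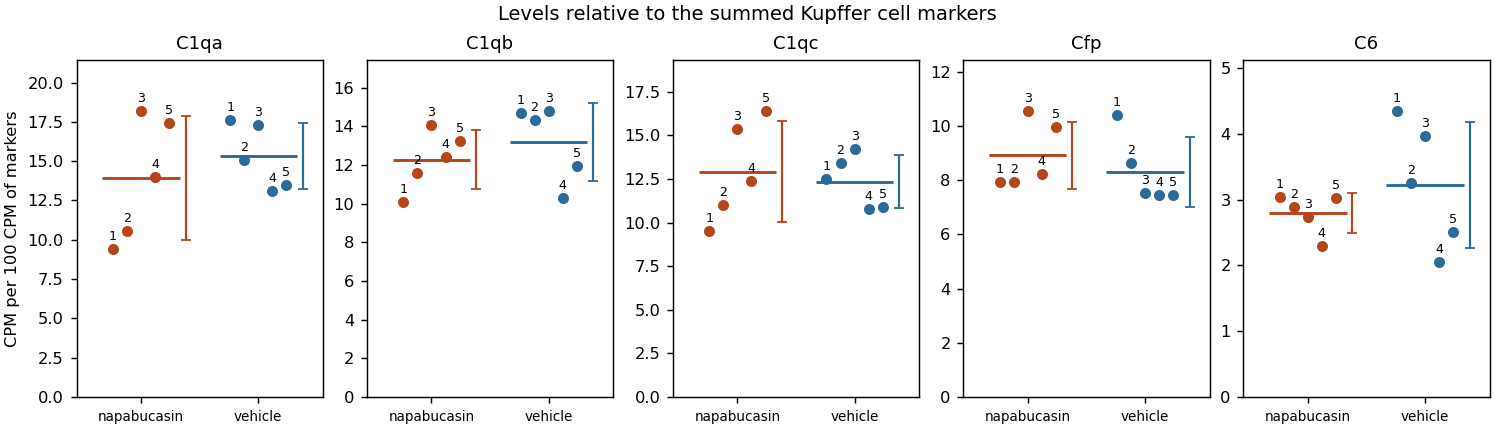
CPM per 100 CPM of the summed Kupffer cell markers (vertical axes, from 0) for C1qa, C1qb, C1qc, Cfp and C6, by library and replicate number, with the group mean and ± 1 SD, napabucasin left of vehicle. Cfp measured 8.92 ± 1.24 in napabucasin livers and 8.30 ± 1.29 in vehicle livers, and the groups overlap in every panel.

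Monocytes and neutrophils also make properdin. Of their 10 markers 9 were tested, all 9 with a higher fitted level in napabucasin livers and 1, Csf3r, with an unadjusted p under 0.05 (log2 fold change 1.15, edgeR adjusted p = 0.256). Their sum was 119 to 450.3 CPM in napabucasin livers and 79.6 to 493 CPM in vehicle livers, lowest again in vehicle replicate 1 and napabucasin replicate 5. Most of that sum came from a single marker, Lyz2, which averaged 261 CPM in napabucasin livers and 215 CPM in vehicle livers. With the replicate block 4 of the 9 markers tested had an unadjusted p under 0.05. Other cell types of the liver moved the same way. All 8 stellate and fibroblast markers had a higher fitted level in napabucasin livers (median log2 fold change 0.76), 4 of them at an unadjusted p under 0.05 and 7 with the replicate block, and their sum was 353 to 872 CPM in napabucasin livers and 284 to 412 CPM in vehicle livers. All 7 erythroid and platelet markers tested were higher as well (median 0.55), 3 of them, Pf4, Ppbp and Itga2b, at an unadjusted p under 0.05, with a sum of 31.5 to 174 CPM in napabucasin livers and 21.8 to 201 CPM in vehicle livers. Of the 10 lymphocyte markers 9 were higher at that threshold (median 1.29). Over all genes tested, 9.34% were higher at that threshold, and 11.8% with the replicate block. What part any of these cell types had in the levels of C1q, Cfp, C6 or other members was not tested.

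The proteases and substrates downstream of C1q did not have these lowest libraries. C1ra and C1s1 encode the proteases of the C1 complex, and their log2 fold changes were -0.02 (SE 0.20) and 0.36 (SE 0.27). C4b, which C1s cleaves, had 0.15 (SE 0.22). C2, the protease partner of C4b, measured 72.7, 49.4, 69.4, 46.5 and 50.2 CPM in napabucasin livers and 51.6, 49.1, 55.3, 45.1 and 33.7 CPM in vehicle livers, for a fitted log2 difference of 0.30 ± 0.19 (SE, adjusted p = 0.451 in edgeR). Its values overlapped, with napabucasin replicates 1 and 3 above and vehicle replicate 5 below all others. C4b has a close paralog, C4a, and reads of such a pair can be split between them.

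The lectin pathway recognises microbial sugars. Mbl1, a mannose-binding lectin, measured 131, 139, 196, 186 and 207 CPM in napabucasin livers and 212, 154, 233, 157 and 173 CPM in vehicle livers, for a fitted log2 difference of -0.11 ± 0.20 (SE, adjusted p = 0.793 in edgeR). The ranges of the 2 groups overlapped widely. The second lectin, Mbl2, had a log2 fold change of -0.32 (SE 0.26), and the associated proteases Masp1 and Masp2 had -0.02 (SE 0.18) and -0.30 (SE 0.22). In the annotation 54.9% of the exon bases of Masp2 lie opposite exons of Tardbp, which had 820 to 1876 counts per library, so the level of Masp2 is uncertain if strand was not used in counting.

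For C3 and the terminal components among the members, C6 apart, the intervals lay within 2-fold. C3, on which all pathways converge, measured 8605, 6155, 7811, 8017 and 6305 CPM in napabucasin livers and 6333, 8711, 12018, 8453 and 9843 CPM in vehicle livers, for a fitted log2 difference of -0.30 ± 0.24 (SE, adjusted p = 0.533 in edgeR). Vehicle replicates 3, 5 and 2 lay above all napabucasin livers, and napabucasin replicates 2 and 5 lay below all vehicle livers. The other libraries overlapped. Hc, the mouse gene for C5, measured 1665, 912, 866, 566 and 722 CPM in napabucasin livers and 684, 1125, 906, 649 and 662 CPM in vehicle livers, for a fitted log2 difference of 0.23 ± 0.29 (SE, adjusted p = 0.698 in edgeR). Napabucasin replicate 1 was the highest, and without it the log2 fold change of Hc was -0.07. C8g, which encodes the lipocalin-like gamma chain of C8, measured 185, 194, 283, 215 and 289.8 CPM in napabucasin livers and 369, 176, 374, 254 and 314 CPM in vehicle livers, for a fitted log2 difference of -0.35 ± 0.24 (SE, adjusted p = 0.476 in edgeR). It was lowest in vehicle replicate 2 and highest in vehicle replicates 3 and 1. The other pore genes among the members, C8a, C8b and C9, had log2 fold changes of -0.03, -0.04 and -0.24. C7, a pore gene that is not a member, had -0.35 (SE 0.61), with an interval of -1.66 to 0.97 that reached past 2-fold.

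In the alternative pathway, factor B (Cfb) is the protease that pairs with C3b, and factor D (Cfd) cleaves it. Cfb measured 11.3, 2.81, 1.77, 2.51 and 1.85 CPM in napabucasin livers and 3.08, 1.52, 3.20, 6.97 and 6.53 CPM in vehicle livers. A single library, napabucasin replicate 1, stood above all others, and the log2 fold change was -0.07 (SE 0.55) with an interval of -1.25 to 1.10. Without that library it was -0.93 (unadjusted p = 0.0462, edgeR adjusted p = 0.503). With limma-voom, which weights libraries by quality, and no library left out it was -1.06 (unadjusted p = 0.0288, limma-voom adjusted p = 0.175). The library counts behind Cfb were 27 to 182. In the annotation 79.5% of the exon bases of Cfb and 42.8% of those of C2 also belong to Gm20547 on the same strand, a gene with 0 counts in every library whose exons all lie within C2 and Cfb. With 0 counts for Gm20547, reads over the shared bases were not credited to both genes. Whether those reads were dropped or counted for Cfb and C2 alone is not stated in the labels or processing notes. If they were dropped, the levels of Cfb and C2 are too low, and both levels are uncertain for that reason. Klkb1 shares 43.2% of its exon bases with Gm45753 in the same way.

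Cfd, also called adipsin and made mainly by fat cells, had 3, 0, 0, 2 and 2 counts in napabucasin livers and 0, 2, 0, 1 and 0 counts in vehicle livers, too few to test. Defining fat cell markers were at or near 0 too: Lep had 0 CPM in all 10 libraries, and Adipoq reached at most 0.0684 CPM in napabucasin livers and 0 CPM in vehicle livers. Of 10 fat cell markers 4 had enough counts to be tested, and the sum of the 10 was 75.3 to 120.1 CPM in napabucasin livers and 90.0 to 134 CPM in vehicle livers, almost all of it from those 4, Pnpla2, Lipe, Fabp4 and Adrb3.

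Complement regulators among the members keep the cascade off host cells. Cfi, the protease that inactivates C3b and C4b, had a log2 fold change of -0.26 (SE 0.25), and C4bp, its cofactor for C4b, had -0.13 (SE 0.22). Of 25 further regulators and receptors 23 were tested, 15 with a higher and 8 with a lower fitted level, and their median log2 fold change was 0.19. At an unadjusted p under 0.05, 3 were higher and 0 lower, Itgax (0.82, SE 0.25), Itgb2 (0.97, SE 0.38) and C5ar2 (0.82, SE 0.38), with edgeR adjusted p-values of 0.228, 0.285 and 0.328. These 3 of 23 stand beside 9.34% of all genes. With the replicate block 6 were higher and 1 lower, against 11.8% and 8.81% of all genes. Itgax and Itgb2 are the subunits of complement receptor 4 on leukocytes, and C5ar2 is a receptor for C5a.

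The mean levels of the fibrinogen genes were lower in napabucasin livers, by more than the SD of napabucasin livers and less than that of vehicle livers, and none passed the test. Fga, Fgb and Fgg encode the chains of fibrinogen and lie within a stretch of chromosome 3, Fgg at 83007724 to 83015049, Fga at 83026076 to 83033627 and Fgb at 83040141 to 83049863. Their promoters are shown because STAT3 and C/EBP factors are textbook inducers of fibrinogen. Capitals mark 3 motifs on either strand in the 250 bases before the RefSeq start site (GRCm38.p6): the STAT motif TTCNNNGAA, the interleukin-6 type II motif CTGGGA and the C/EBP motif TTGCNNCA.
Fga (chr3:83025903-83026152, plus strand): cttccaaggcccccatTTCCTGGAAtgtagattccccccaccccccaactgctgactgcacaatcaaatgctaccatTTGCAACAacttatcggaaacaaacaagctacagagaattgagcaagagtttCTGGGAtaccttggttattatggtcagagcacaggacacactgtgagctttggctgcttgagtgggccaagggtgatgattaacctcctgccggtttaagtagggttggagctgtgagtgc
Fgb (chr3:83049864-83050113, minus strand): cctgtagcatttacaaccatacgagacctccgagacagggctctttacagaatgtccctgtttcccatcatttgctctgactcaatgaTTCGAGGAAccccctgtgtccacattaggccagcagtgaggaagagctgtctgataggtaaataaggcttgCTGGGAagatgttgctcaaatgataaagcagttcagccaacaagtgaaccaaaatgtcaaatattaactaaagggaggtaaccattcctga
Fgg (chr3:83007474-83007723, plus strand): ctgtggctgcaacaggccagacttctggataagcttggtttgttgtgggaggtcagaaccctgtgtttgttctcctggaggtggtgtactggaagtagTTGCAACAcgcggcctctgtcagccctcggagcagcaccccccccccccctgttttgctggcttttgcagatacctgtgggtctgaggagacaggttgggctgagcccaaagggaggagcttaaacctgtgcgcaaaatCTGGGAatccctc
Fga held all 3 motifs, Fgb held the STAT and interleukin-6 type II motifs, and Fgg held the interleukin-6 type II and C/EBP motifs. The STAT motif was present in 8.13% of the 27025 genes of the promoter table, the interleukin-6 type II motif in 29.8% and the C/EBP motif in 11%. Among the 18 coagulation genes matched there were 4, 7 and 7 with each motif, and among the 17 complement genes 2, 7 and 2. No marked motifs overlapped each other, and the deposited start of Fga lies inside its window. These are matches of letters, and 35 of the 44 members had a promoter in the table.

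Across the livers, the chains of fibrinogen shared their highest and lowest library. Fga measured 3963, 2622, 5519, 3671 and 4404 CPM in napabucasin livers and 3073, 5104, 7993, 4852 and 5179 CPM in vehicle livers. Fgb measured 5104, 4539, 8972, 4800.2 and 5116 CPM in napabucasin livers and 5537, 10496, 11521, 5406 and 5699 CPM in vehicle livers. Fgg measured 4778, 3837, 6539, 4767 and 4843 CPM in napabucasin livers and 4249, 7908, 9425, 4947 and 4704 CPM in vehicle livers. Vehicle replicate 3 was the highest library and napabucasin replicate 2 the lowest for all of them, and the groups overlapped. Fga averaged 4036 ± 1057 CPM in napabucasin livers and 5240.5 ± 1764 CPM in vehicle livers (SD, n = 5 each), for a fitted log2 difference of -0.38 ± 0.28 (SE, adjusted p = 0.513 in edgeR). For Fgb the means were 5706 ± 1841 CPM in napabucasin livers and 7732 ± 3015 CPM in vehicle livers, for a fitted log2 difference of -0.44 ± 0.30 (SE, adjusted p = 0.485 in edgeR). For Fgg they were 4953 ± 979.6 CPM in napabucasin livers and 6247 ± 2287 CPM in vehicle livers, for a fitted log2 difference of -0.33 ± 0.27 (SE, adjusted p = 0.548 in edgeR). Without vehicle replicate 3 the log2 fold changes of Fga, Fgb and Fgg were -0.18, -0.25 and -0.14, and without vehicle replicate 1 they were -0.54, -0.55 and -0.46.

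The makeup of fibrinogen transcripts varied between livers as well. Of the summed FPKM of the 3 genes, Fga was 22.4% to 28.6% in napabucasin livers and 20.6% to 31.5% in vehicle livers. Fgb was 26.2% to 32.2% in napabucasin livers and 26.3% to 33.5% in vehicle livers. Fgg was 42.7% to 47.9% in napabucasin livers and 41.1% to 45.9% in vehicle livers, and each of these ranges overlapped.

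**Figure D5:**
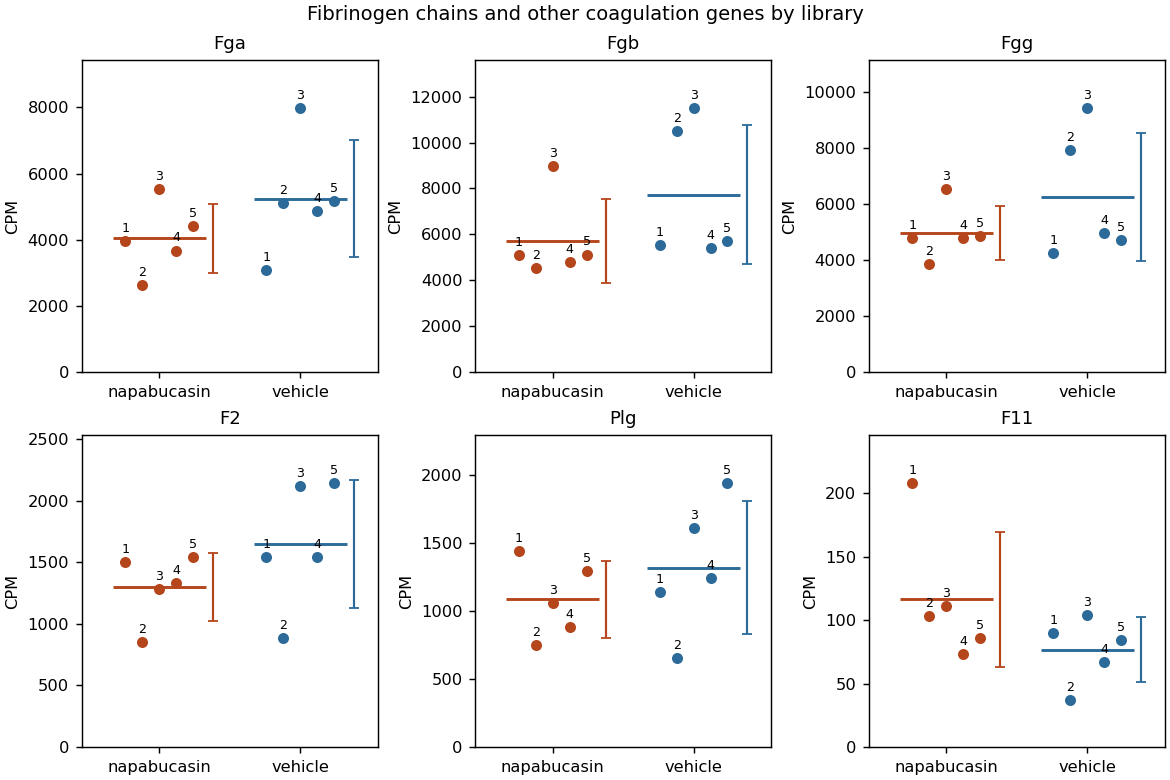
CPM (vertical axes, from 0) of Fga, Fgb, Fgg, F2, Plg and F11 in each library, numbered by replicate, with the group mean as a line and ± 1 SD as a bar, napabucasin left of vehicle. Vehicle replicate 3 is the highest library for the fibrinogen chains, vehicle replicate 2 is among the lowest 2 for F2, Plg and F11, and F11 is highest in napabucasin replicate 1.

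Thrombin, the protease that cuts fibrinogen, is the product of F2. F2 measured 1503, 849, 1279.7, 1328 and 1543 CPM in napabucasin livers and 1540.4, 880.4, 2118, 1540.2 and 2144 CPM in vehicle livers, for a fitted log2 difference of -0.34 ± 0.27 (SE, adjusted p = 0.533 in edgeR). Vehicle replicates 3 and 5 lay above all napabucasin livers, and vehicle replicate 2 and napabucasin replicate 2 were the lowest. F10, the protease that activates thrombin, measured 483, 345, 520.4, 395 and 518 CPM in napabucasin livers and 592, 393, 658, 520.5 and 602 CPM in vehicle livers, for a fitted log2 difference of -0.29 ± 0.21 (SE, adjusted p = 0.497 in edgeR). F5, its cofactor, measured 545, 394, 339, 315 and 428 CPM in napabucasin livers and 439, 276, 355, 337 and 392 CPM in vehicle livers, for a fitted log2 difference of 0.17 ± 0.21 (SE, adjusted p = 0.694 in edgeR). For both genes the groups overlapped. F7, which starts coagulation together with tissue factor, measured 159, 108, 95.5, 75.3 and 119 CPM in napabucasin livers and 92.2, 85.1, 142, 99.9 and 127 CPM in vehicle livers, for a fitted log2 difference of 0.03 ± 0.22 (SE, adjusted p = 0.953 in edgeR). F9, the protease defective in haemophilia B, had a log2 fold change of 0.06 (SE 0.18), and F13b, the carrier subunit of the enzyme that crosslinks fibrin, had -0.09 (SE 0.23).

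The contact system can also start coagulation, through F12, plasma kallikrein, kininogen and F11. F11 (chromosome 8, 45241174 to 45262031) had the smallest p of the coagulation genes. It measured 208, 103, 111, 73.4 and 86.0 CPM in napabucasin livers and 90.0, 37.2, 104, 67.3 and 84.1 CPM in vehicle livers, for a fitted log2 difference of 0.61 ± 0.31 (SE, adjusted p = 0.365 in edgeR), with an unadjusted p of 0.0722. Napabucasin replicate 1 was the highest and vehicle replicate 2 the lowest, and the other 8 libraries overlapped. Without napabucasin replicate 1, the library with the mitochondrial share of 19.9%, the log2 fold change was 0.29. The unadjusted edgeR p of F11 was 0.0165 with library size as the only scaling, 0.0347 without napabucasin replicate 4 and 0.0449 without vehicle replicate 3. The replicate block gave 0.0379. In all other alternatives the unadjusted p of F11 lay above 0.05. It ran from 0.0525 (edgeR, no filter on low counts) to 0.275 (edgeR, without napabucasin replicate 1). Klkb1, plasma prekallikrein, lies next to F11 (chromosome 8, 45266689 to 45294859) and measured 286, 236, 219.6, 214 and 239.6 CPM in napabucasin livers and 263, 176, 231, 241 and 227 CPM in vehicle livers, for a fitted log2 difference of 0.07 ± 0.18 (SE, adjusted p = 0.854 in edgeR). F12 had a log2 fold change of -0.23 (SE 0.21), and the kininogens Kng1 and Kng2 had -0.20 (SE 0.24) and 0.03 (SE 0.20), with the reservation that reads of these paralogs can be split.

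The intervals of the members that limit or dissolve clots also lay within 2-fold. Plg, which becomes plasmin, measured 1442, 751, 1056, 880.2 and 1293 CPM in napabucasin livers and 1138, 650.5, 1607, 1245 and 1942 CPM in vehicle livers, for a fitted log2 difference of -0.28 ± 0.29 (SE, adjusted p = 0.639 in edgeR). Proc, protein C, measured 756, 505, 531, 419 and 651 CPM in napabucasin livers and 712, 372, 561, 459.8 and 597 CPM in vehicle livers, for a fitted log2 difference of 0.08 ± 0.23 (SE, adjusted p = 0.874 in edgeR). Napabucasin replicate 1 was the highest of its group for both, and vehicle replicate 2 was the lowest library of all 10 for both. The cofactor of protein C, Pros1, had a log2 fold change of 0.03 (SE 0.18), and Proz, a cofactor for inhibition of activated factor X, had 0.09 (SE 0.21). Cpb2, a carboxypeptidase that slows fibrinolysis, Hrg, which binds plasminogen, and Vtn had -0.22 (SE 0.22), -0.30 (SE 0.26) and -0.12 (SE 0.23).

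Of 24 further inhibitors, cofactors and fibrinolysis genes 22 were tested, 10 with a higher and 12 with a lower fitted level, and a median log2 fold change of -0.07. Tfpi, the inhibitor of the tissue factor pathway, was the 1 gene with an unadjusted p under 0.05. It measured 14.4, 8.44, 7.80, 11.1 and 6.98 CPM in napabucasin livers and 4.70, 5.56, 4.26, 5.17 and 3.45 CPM in vehicle livers, so that all 5 napabucasin livers lay above all 5 vehicle livers. Such a separation was seen in 1.21% of all genes tested. The log2 fold change of Tfpi was 1.07 (SE 0.24, edgeR adjusted p = 0.166). DESeq2 called Tfpi at an adjusted p under 0.05, as it did 1.77% of the genes it tested. Endothelial cells are a known source of Tfpi. All 10 sinusoidal endothelial markers had a higher fitted level in napabucasin livers (median log2 fold change 0.66), and 4 of them, Stab2, Pecam1, Kdr and Mrc1, had an unadjusted p under 0.05, or 7 with the replicate block. Their sum was 253 to 522 CPM in napabucasin livers and 136 to 324 CPM in vehicle livers, and its part in the level of Tfpi was not tested. With the replicate block 1 gene of the inhibitor list was higher and 2 were lower. These counts stand beside 9.34% of all genes higher and 5.83% lower without the block, and 11.8% and 8.81% with it.

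Liver transcription factors and receptors that act on these genes were also followed, 10 in all, 4 with a higher and 6 with a lower fitted level and a median log2 fold change of -0.15. With the replicate block 2 of the 10 were lower at an unadjusted p under 0.05, against 8.81% of all genes. Without the block the 1 gene at that threshold, beside 5.83% of all genes lower and 9.34% higher, was Cebpa, a C/EBP factor of hepatocytes. It measured 62.2, 111, 145, 159.9 and 126 CPM in napabucasin livers and 172, 177, 209, 187 and 221 CPM in vehicle livers, for a fitted log2 difference of -0.68 ± 0.23 (SE, adjusted p = 0.256 in edgeR). All 5 napabucasin livers lay below all 5 vehicle livers, as for 0.934% of all genes tested, and Cebpa was lowest in napabucasin replicate 1. Stat3, the named target of the drug, measured 79.2, 98.1, 100.3, 86.1 and 94.4 CPM in napabucasin livers and 67.3, 118, 144, 121 and 87.7 CPM in vehicle livers, for a fitted log2 difference of -0.23 ± 0.20 (SE, adjusted p = 0.578 in edgeR). The groups overlapped, and a transcript level does not measure STAT3 activity. Of the 9 hepatocyte markers tested, 8 had a lower and 1 a higher fitted level in napabucasin livers, and the median log2 fold change was -0.24. Cps1, a urea cycle enzyme, had an unadjusted p under 0.05 (log2 fold change -0.59, edgeR adjusted p = 0.286).

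Taken as shares of all counts, complement genes made up 1.48% ± 0.184 in napabucasin livers and 1.54% ± 0.337 in vehicle livers (SD, n = 5 each). Coagulation genes made up 2.93% ± 0.512 in napabucasin livers and 3.39% ± 0.848 in vehicle livers. Single libraries stood out across many members. Napabucasin replicate 1 was the highest library of its group for 11 of 22 complement and 11 of 21 coagulation genes, and vehicle replicate 3 for 12 and 13. Vehicle replicate 2 was the lowest of its group for 9 complement and 15 coagulation genes, although its fibrinogen beta and gamma chains were the second highest of the 10 libraries. It also had the lowest hepatocyte marker sum, 56902 CPM. Genes annotated as rRNA took 0.912% of its counts, 1.089% in napabucasin replicate 2, 1.095% in napabucasin replicate 1 and 0.195% to 0.455% in the other libraries. The part of these library traits in the levels was not tested. Between mice of a group, the coefficient of variation of a tested member had a median of 22.0% in napabucasin livers and 25.0% in vehicle livers. The widest was 101% in napabucasin livers and 55.8% in vehicle livers.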

How the data were processed

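Whole-liver RNA of 10 mice, 5 given napabucasin and 5 given vehicle, was poly-A selected and converted to cDNA from random hexamer primers, as the labels' protocols state. Whole read counts per gene, not normalized, were deposited, made by the authors with CASAVA, HISAT2 2.0.5 and featureCounts 1.5.0-p3 on GRCm38 (mm10), per the submitters' processing notes. The strand setting and the handling of reads over several genes are not stated there. The authors computed the deposited FPKM values from those counts. Their scaling equalled a size factor times the geometric mean of the library totals in every library, checked on the values, so they carry the authors' between-library normalization.

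The test was that of edgeR 4.0.16 in R 4.3.3 (filterByExpr, TMM, robust quasi-likelihood F test, treatment as the only term), Benjamini-Hochberg adjusted over all 14244 genes that passed the filter. Of 54532 genes, 26567 had a count above 0. CPM values use TMM library sizes, and standard errors are those implied by the F statistic. A p-value here reflects the spread among these 10 libraries. The number of libraries and their totals limit precision, and low counts such as those of Cfb carry the most counting error. The procedure was tested on simulated data. The members and gene lists were chosen with earlier results of these data known.

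Values per library are given for members with an unadjusted p under 0.05 or, if fewer, the 6 with the smallest p in each cascade, and for 19 further or overlapping members chosen for their role. Of companion lists, up to 4 genes with an unadjusted p under 0.05 are named, and Stat3 was added after its values were seen. One listed hepatocyte marker was not matched. Exon overlaps come from the GENCODE annotation of GRCm38, and promoters from a RefSeq table (GRCm38.p6), read with Python 3.11.15 and pandas 2.3.3.

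Alternatives were other scalings and filters, a non-robust fit, DESeq2 1.42.0, limma-voom and limma 3.58.1 on log2(FPKM + 1) or log2(FPKM + 0.1) for a mean FPKM of at least 0.5 or with no filter, a replicate block, and each library left out. The labels number the replicates 1 to 5 in both groups without saying what a number shares. Libraries with the same number deviated together from their group means, with correlations of 0.154, 0.227, 0.208, 0.270 and 0.278, each above 0.1. On that ground, which comes from the data and from no label, the numbers were taken to pair the samples in the replicate block, although 6 of 10 libraries had their best correlation with their own number. The block was an alternative fit. The edgeR p-values and intervals given without mention of the block come from fits with treatment as the only term, which leave any pairing out.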

Additional observations from a re-analysis of the deposited data

Results flagged for a closer look

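Of 86 groups of 5 libraries examined, 1 per tested member and treatment, 8 held a library whose gap to its nearest neighbour exceeded 0.71 of the whole range of the group. Chance flags about 1 in 20 groups, or 4.3 of these.

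Napabucasin replicate 1, the library with the highest mitochondrial share of counts (19.9%), stood above the rest of its group for 4 members. C1s1 measured 851 CPM there and 303 to 422 CPM in the other napabucasin livers. Cfb measured 11.3 CPM there and 1.77 to 2.81 CPM in the others. For F9 the values were 291 CPM and 207 to 219 CPM, and for F11 208 CPM and 73.4 to 111 CPM. In napabucasin replicate 3, Fgb measured 8972 CPM, against 4539 to 5116 CPM in the other napabucasin livers. Cfp measured 55.9 CPM in napabucasin replicate 5 and 169 to 209 CPM in the other napabucasin livers.

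Among vehicle livers, C4bp measured 729.8 CPM in replicate 3 and 429 to 485 CPM in the others. C1s1 measured 378 CPM in vehicle replicate 1 and 351 to 358 CPM in the others, a narrow group in which a small gap sufficed.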

How the results depend on the processing

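Over all genes, edgeR's 0 calls at an adjusted p under 0.05 became 1 with library size only, 19 with no filter on low counts, 242 with DESeq2, 132 with limma-voom and 1 with limma on log2(FPKM + 0.1), and 0 to 18 with a library left out, highest without vehicle replicate 1. At an unadjusted p under 0.05, the 1331 higher and 830 lower genes totalled 1324 to 2786 with a library left out. Higher genes were 61.6% of that total, against 79.6% with library size only (1407 higher, 361 lower), 50.8% with limma-voom and 51.9%, 52.2% and 51.6% in the limma fits on FPKM. For complement, the 1 gene at an unadjusted p under 0.05 became 0 with library size only, with no filter and in the 3 limma fits on FPKM, 2 with limma-voom, 2 with the replicate block, and 0 to 5 with a library left out. For coagulation, 0 became 1 with library size only (F11), 1 with the replicate block and 0 to 1 with a library left out. The cause was not tested. Over the alternatives run, the median log2 fold change of complement lay between -0.09 and 0.07 and took either sign, the ends being reached without vehicle replicate 2 and without vehicle replicate 3. That of coagulation lay between -0.22, again without vehicle replicate 2, and -0.03, with library size only. Of 484 values of 22 named members under 22 alternatives, 17 changed sign. With limma-voom the log2 fold change of Mbl1 was 0.0047, that of F7 -0.15 and that of Klkb1 -0.018. With a library left out, Hc ran from -0.070 to 0.39, Cfb from -0.93 to 0.18, F7 from -0.14 to 0.14, Klkb1 from -0.0032 to 0.12 and Proc from -0.036 to 0.19. The replicate block changed no other call among the members. Wide spread between mice limits what can be seen: for 8 of 43 members the 95% interval reached past 2-fold.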

Other observations

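The shares of the C1q chains varied less between livers than the levels of the chains did. Shares of a sum cancel what the 3 genes have in common, so a smaller variation follows from the measure itself. Of the summed FPKM of the 3 genes, C1qa was 38.3% to 45.5% in napabucasin livers and 41.9% to 45.9% in vehicle livers, and C1qb was 32.5% to 40.2% in napabucasin livers and 34.2% to 38.1% in vehicle livers. C1qc was 20.5% to 22.7% in napabucasin livers and 17.5% to 20.2% in vehicle livers, ranges that did not overlap. This share was singled out after its values were seen, as 1 of 6 chain shares of C1q and fibrinogen examined, and it has no test.

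Several members are neighbours in the genome (GRCm38), and their log2 fold changes can be set side by side. F7 (0.03), F10 (-0.29) and Proz (0.09) lie in a row on chromosome 8 from 13026034 to 13076026, and F11 (0.61) and Klkb1 (0.07) lie 4657 bases apart on the same chromosome. Hrg (-0.30), Kng2 (0.03) and Kng1 (-0.20) lie on chromosome 16 from 22951072 to 23082078. C8b (-0.04) and C8a (-0.03), which encode subunits of the same complex, lie 11130.0 bases apart on chromosome 4.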
